A study of Mus musculus with 10 samples.

Results

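The 10 genes described here belong to the transcriptional response to amino acid shortage that the transcription factor ATF4 directs. They are Atf4, Atf5, Ddit3, Trib3, Chac1, Asns, Sesn2, Ddit4, Slc7a11 and Slc3a2, picked by symbol from the 21853 protein-coding genes of each expression table. All 10 were found, and all 10 were among the 12060 genes that were tested, those that reached 1 TPM in 2 or more libraries. Slc7a11 passed that filter through the primed libraries alone, and the other libraries would not have admitted it to the tests below. RNA from 5 lines of mouse ESCs was sequenced, with 2 libraries per line and 10 in all. Naïve ESCs (J1, wild type), AKO (AMPK KO), GKO (GYS1 KO) and DKO (AMPK, GYS1 KO) are all J1 cells, kept on gelatin in serum with LIF, PD0325901 and CHIR99021. Primed ESCs (PJ1, wild type) were kept on Matrigel in serum replacement with bFGF and Activin, so that line, state and medium differ together. The knockouts were made with Cas9, Gys1 from picked colonies and AMPK with plasmids against Prkaa1, and the sources used here do not say which clone or clones each library came from. The difference between clones and the effect of a knockout therefore cannot be told apart, and the p-values measure only the spread between the 2 libraries of a line, which may be technical.

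Amino acid shortage, haem deficiency, viral RNA or unfolded protein in the endoplasmic reticulum each activate a kinase that phosphorylates the translation factor eIF2, which lowers protein synthesis in general and raises translation of the Atf4 mRNA. ATF4 protein then binds, with C/EBP partners, to a composite element in the promoters of genes for amino acid synthesis, amino acid import and redox control. ATF4 is controlled to a large part at translation, and RNA-seq measures its mRNA only. In ESCs the pathway meets a high demand for amino acids that goes with rapid division.

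The promoters are shown first, since ATF4 acts on several of these genes through a known sequence. Its core was searched as TGATGNAA on both strands in RefSeq promoter windows, which run from 250 bases before to 50 bases after a transcription start (assembly GRCm38.p6). All 10 genes had a window, and Atf5 had 2. The core was present in 4 of the 10 genes, Asns, Chac1, Slc7a11 and Trib3, and in 3.97% of all 32851 windows. The 4 include known targets of ATF4, so this share describes the genes chosen. The full cAMP response element TGACGTCA was in none of the 10 genes and in 1.79% of all windows. These letters mark a match and nothing about binding in these cells. The 250 bases before the start are printed 5′ to 3′ for the 3 genes with a match there, with the match in capitals. They lie at chr2:119350992-119351241 on the plus strand for Chac1, at chr3:50443614-50443863 on the minus strand for Slc7a11 and at chr6:7693210-7693459 on the minus strand for Asns.
Chac1: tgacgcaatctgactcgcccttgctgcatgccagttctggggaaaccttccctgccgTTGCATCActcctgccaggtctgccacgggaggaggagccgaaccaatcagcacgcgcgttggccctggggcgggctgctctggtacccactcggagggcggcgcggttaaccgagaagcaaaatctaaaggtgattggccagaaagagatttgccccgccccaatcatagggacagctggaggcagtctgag
Slc7a11: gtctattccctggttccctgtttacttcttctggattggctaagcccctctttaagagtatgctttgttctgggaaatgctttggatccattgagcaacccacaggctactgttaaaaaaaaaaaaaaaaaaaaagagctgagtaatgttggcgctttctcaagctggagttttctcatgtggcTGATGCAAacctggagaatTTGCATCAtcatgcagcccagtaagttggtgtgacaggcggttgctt
Asns: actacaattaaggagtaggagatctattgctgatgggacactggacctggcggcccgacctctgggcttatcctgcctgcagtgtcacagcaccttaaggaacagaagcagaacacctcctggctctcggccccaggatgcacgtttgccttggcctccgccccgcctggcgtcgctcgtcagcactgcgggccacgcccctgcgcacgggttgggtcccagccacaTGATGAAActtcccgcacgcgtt
The match in Chac1 lies 193 to 186 bases before the start on the opposite strand. Slc7a11 holds a pair in opposite orientation, 66 to 59 and 47 to 40 bases before the start. The match in Asns lies 23 to 16 bases before the start. On the motif strand it reads TGATGAAA in Asns and TGATGCAA in Chac1 and at both places in Slc7a11. In Trib3 the match lies just inside the transcript, 15 to 22 bases after the start on the opposite strand. It is shown with 6 bases on either side, at chr2:152344033-152344052 on the minus strand.
Trib3: tcaggtTTACATCAgccggg
Of the 4 genes that hold the core, Chac1, Slc7a11 and Trib3 were lower in GKO and DKO than in naïve ESCs, while Asns did not pass the test there, as given next. Of the genes without it, Atf4 and Slc3a2 were lower as well, Atf5, Sesn2 and Ddit4 were higher, and Ddit3 did not pass. In primed ESCs Slc7a11 was higher, Asns and Trib3 were lower, and Chac1 did not pass. The match was not tested against expression.

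Levels are in TPM, a share of all transcripts in a library that takes transcript length into account, so that genes can be set side by side. The number of reads behind a value was not known. The listed TPM summed to between 500162 and 578952 per library, and the median absolute difference between the libraries of a line, on the log2(TPM + 1) scale, was 0.06 to 0.07 in the J1 lines and 0.13 in primed ESCs. Prkaa1, which encodes AMPKα1, held 15.5 and 16.6 TPM in the naïve libraries, 12.2 and 11.96 in those of GKO, 7.24 and 6.94 in those of AKO and 2.30 and 2.04 in those of DKO. Prkaa2, which encodes AMPKα2, was not named as a target. It held 2.385 and 2.413 TPM in the naïve libraries, 2.705 and 2.435 in AKO, 3.268 and 3.294 in GKO and 3.291 and 3.103 in DKO. Loss or absence of AMPK below therefore means the Prkaa1 knockout. For Gys1 the naïve libraries held 11.5 and 10.8 TPM, those of GKO 9.70 and 9.98 TPM and those of DKO 12.1 and 11.7 TPM. A small indel can leave an mRNA in place, so this level does not check the label. Eif2s3y, the Y-linked gene for the γ subunit of eIF2, was listed at 0 in the naïve, AKO and primed libraries and reached 41.5 and 38.0 TPM in GKO, against 37.3 and 37.4 in DKO. Ddx3y and Uty, also Y-linked, had the same pattern, at 7.83 to 22.9 TPM and at 2.35 to 7.05 TPM in GKO and DKO. Its X-linked partner Eif2s3x was at 184 and 186 TPM in the naïve libraries, 205 and 231 in GKO and 139.6 and 137 in DKO. GKO and DKO thus share a difference from naïve ESCs and AKO at Y-linked genes besides Gys1, and these differences cannot be told apart in the comparisons of GKO or DKO with naïve ESCs or AKO. The Y-linked genes were looked up after their values were seen. The naïve pluripotency markers, 12 in all, summed to 1798 to 2070 TPM in the J1 lines and to 170 and 180 TPM in primed ESCs.

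ATF4 is the central activator of the response. Atf4 (ENSMUSG00000042406; GRCm39, chromosome 15, 80139372 to 80141745, plus strand) was at 248.9 and 242 TPM in the naïve libraries, 282 and 276 in AKO, 174 and 164 in GKO, 162 and 173 in DKO, and 252 and 249.4 TPM in primed ESCs. GKO and DKO overlapped each other and lay below every other library, and AKO lay above every other. The median tested gene of chromosome 15 also changed, by -0.15 in GKO and by -0.16 in DKO against naïve ESCs on the log2(TPM + 1) scale. Relative to that median Atf4 remained lower, by -0.38 in GKO and -0.39 in DKO.

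ATF5 is a related bZIP factor that also responds to phosphorylated eIF2. Atf5 (ENSMUSG00000038539; chromosome 7, 44461680 to 44466082, minus strand) was at 21.9 and 21.2 TPM in the naïve libraries, 21.9 and 24.3 in AKO, 27.1 and 26.3 in GKO, 27.1 and 25.9 in DKO, and 52.1 and 57.5 TPM in primed ESCs. GKO and DKO overlapped and lay above the naïve and AKO libraries, where Atf4 was lower, and the primed libraries stood clear of all others. Ddit3 encodes CHOP, a bZIP factor linked to cell death under prolonged stress. Ddit3 (ENSMUSG00000025408; chromosome 10, 127124268 to 127132163, plus strand) was the lowest of the 3 factors, at 3.28 and 2.24 TPM in the naïve libraries, 3.20 and 3.41 in AKO, 2.32 and 2.35 in GKO, 2.31 and 2.57 in DKO, and 5.28 and 3.32 TPM in primed ESCs. Each line overlapped its neighbour in the order of means. A second row named Ddit3 was at 0 in all 10 libraries, and the annotation holds 2 overlapping genes of that name, so the division of reads between them is uncertain. Atf5 shares its locus with genes on the other strand, and the strand setting used for counting is not given in the sources used here.

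TRIB3 is a pseudokinase that is induced by ATF4 and CHOP and restrains them in turn. Trib3 (ENSMUSG00000032715; chromosome 2, 152179337 to 152191958, minus strand) was at 14.6 and 13.96 TPM in the naïve libraries, 18.4 and 15.6 in AKO, 8.55 and 10.2 in GKO, 9.20 and 9.47 in DKO, and 5.05 and 5.75 TPM in primed ESCs. GKO and DKO overlapped each other and lay between naïve and primed ESCs. CHAC1 is a glutathione-degrading enzyme and one of the most responsive targets of ATF4. Chac1 (ENSMUSG00000027313; chromosome 2, 119180757 to 119184866, plus strand) was at 8.39 and 8.84 TPM in the naïve libraries, 13.2 and 11.6 in AKO, 3.13 and 3.77 in GKO, 3.16 and 2.74 in DKO, and 6.95 and 8.50 TPM in primed ESCs. Its primed libraries overlapped the naïve ones, unlike those of Trib3. An annotated antisense gene overlaps Trib3, with the same uncertainty as for Atf5.

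ASNS makes asparagine from aspartate and glutamine. Asns (ENSMUSG00000029752; chromosome 6, 7671667 to 7728461, minus strand) was the most abundant of the 10 genes in the J1 lines, at 514 and 503 TPM in the naïve libraries, 523 and 522 in AKO, 555 and 528 in GKO and 449 and 468 in DKO. It was at 114 and 162 TPM in primed ESCs, below every J1 library. The J1 lines did not overlap, and their means ran from 459 ± 13.5 TPM for DKO to 541 ± 19.3 TPM for GKO (SD, n = 2).

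SLC7A11 and SLC3A2 form the cystine and glutamate exchanger xCT, SLC3A2 being the heavy chain that also serves several other amino acid transporters. Slc7a11 (ENSMUSG00000027737; chromosome 3, 49846975 to 50398070, minus strand) stayed under 1 TPM in each J1 library, at 0.249 and 0.245 TPM in the naïve libraries, 0.700 and 0.729 in AKO, 0.052 and 0.05 in GKO, and 0.0230 and 0.0340 in DKO. It was at 23.8 TPM in both primed libraries. No line overlapped another, but with unknown depth the reads behind values as low as those of GKO and DKO may be very few. Slc3a2 (ENSMUSG00000010095; chromosome 19, 8684245 to 8701108, minus strand) was abundant in every line, at 181 and 180.3 TPM in the naïve libraries, 189 and 196 in AKO, 141 and 136 in GKO, 135 and 137 in DKO, and 185 and 224 TPM in primed ESCs. On the TPM scale the level of the heavy chain was thus far above that of the light chain in the J1 lines.

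SESN2 is a leucine sensor and DDIT4 (REDD1) a stress protein, and both restrain mTORC1, the kinase complex that drives protein synthesis when amino acids are plentiful. Sesn2 (ENSMUSG00000028893; chromosome 4, 132219335 to 132237815, minus strand) was at 31.9 and 31.7 TPM in the naïve libraries, 33.6 and 34.2 in AKO, 38.5 and 38.9 in GKO, 50.2 and 56.9 in DKO, and 42.5 and 47.0 TPM in primed ESCs. The 5 lines did not overlap, and DKO was highest. Ddit4 (ENSMUSG00000020108; chromosome 10, 59785491 to 59788492, minus strand) was at 8.54 and 6.78 TPM in the naïve libraries, 11.5 and 8.17 in AKO, 13.8 and 16.9 in GKO, 24.9 and 27.6 in DKO, and 82.0 and 147 TPM in primed ESCs. Naïve ESCs and AKO overlapped, and the other lines stood apart from them and from each other. Both genes are also known to respond to other signals, p53 and energy stress among them for Sesn2, hypoxia and glucocorticoids for Ddit4.

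**Figure D1:**
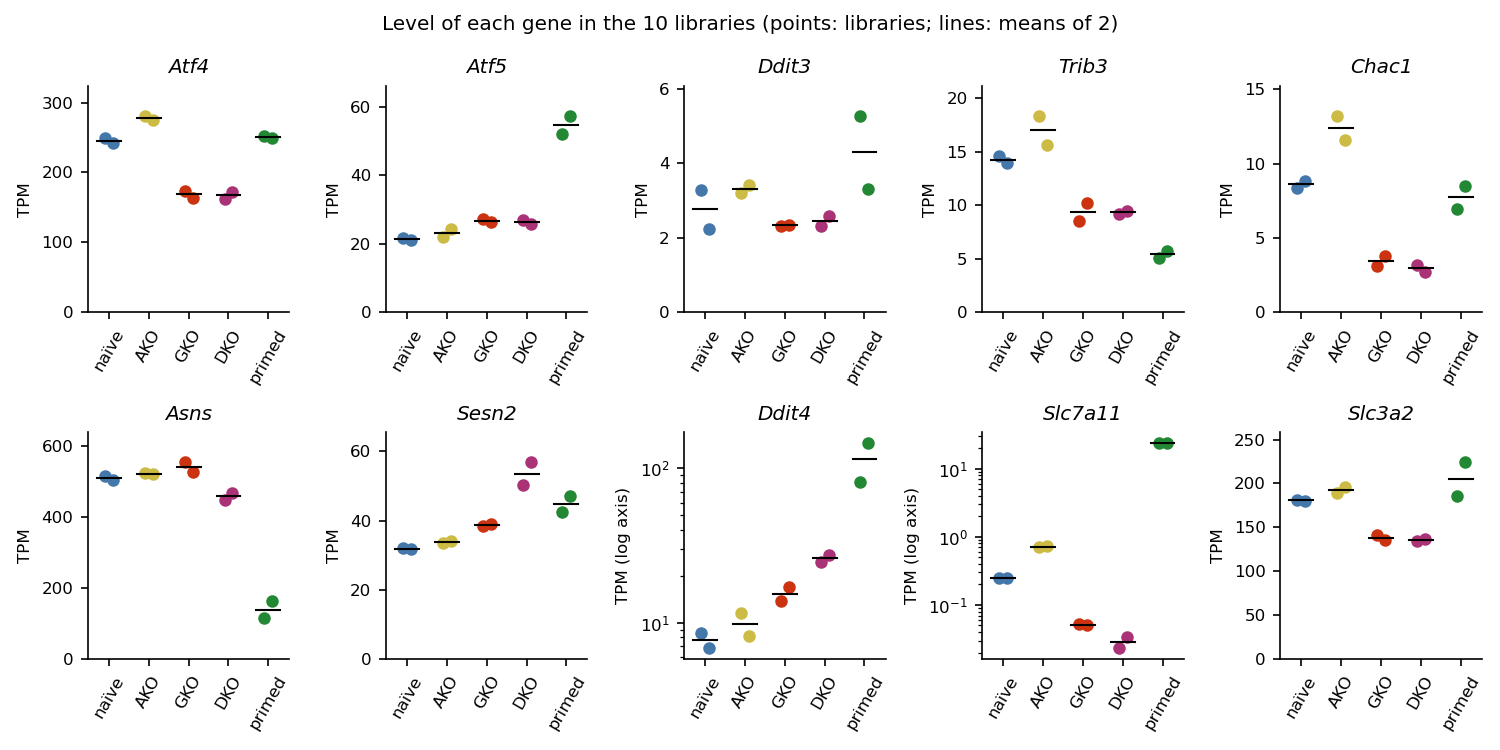
TPM of each of the 10 genes in the 2 libraries of naïve ESCs, AKO, GKO, DKO and primed ESCs, 1 panel per gene, with points for libraries and lines for the means of 2 (Ddit4 and Slc7a11 on a log axis). Atf4, Trib3, Chac1, Slc7a11 and Slc3a2 are lower in GKO and DKO than in naïve ESCs and AKO, while Atf5, Sesn2 and Ddit4 are higher.

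The loss of Gys1, and with it glycogen synthesis, was compared with naïve ESCs first. In GKO, Atf4, Trib3, Chac1, Slc7a11 and Slc3a2 were lower. Atf5 and the mTORC1 inhibitors Sesn2 and Ddit4 were higher, and Asns and Ddit3 did not pass. Chac1 changed most on the log2(TPM + 1) scale, with a mean of 3.45 ± 0.451 TPM in GKO against 8.62 ± 0.322 TPM in naïve ESCs (SD, n = 2), 2.50 times as high in naïve ESCs. By the ratio of TPM means the low Slc7a11 differed more, 4.84 times as high in naïve ESCs. Atf4 itself was 1.45 times and Trib3 1.52 times as high in naïve ESCs as in GKO, while Ddit4 was 2.01 times as high in GKO. In total 8 of the 10 genes passed the test, 3 higher and 5 lower, where 51.7% of all tested genes passed, 24.7% higher and 27.1% lower. With an absolute log2 change of at least 1 in addition, Chac1 alone of the 10 remained, as did 3.59% of all tested genes. That size depends on the pseudocount: with 0.1 in place of 1, Slc7a11 changed by -1.20, and 1077 genes in place of 433 were called at that size. The test was limma on log2(TPM + 1) with Benjamini-Hochberg adjustment over all tested genes and a threshold of 0.05. The median change of the 10 genes was -0.20, and that of all tested genes -0.01.

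Chac1 changed by -1.11 (SE 0.11, adjusted p = 7.93e-05 from limma), Atf4 by -0.54 (SE 0.05, adjusted p = 4.05e-05) and Trib3 by -0.56 (SE 0.10, adjusted p = 0.00163). The mTORC1 inhibitors changed by 0.92 for Ddit4 (SE 0.25, adjusted p = 0.0138) and 0.27 for Sesn2 (SE 0.07, adjusted p = 0.00809). Atf5 changed by 0.30 (SE 0.07, adjusted p = 0.00505). Asns, at 0.09 with a 95% interval from -0.20 to 0.38, and Ddit3, at -0.16 with an interval from -0.56 to 0.24, did not pass. Slc7a11 changed by -0.25 (SE 0.07, adjusted p = 0.0142), on a scale that understates the change of a gene under 1 TPM. Slc3a2 changed by -0.38 (SE 0.08, adjusted p = 0.00316), but the median tested gene of its chromosome, 19, changed by -0.40, and relative to that median its change was 0.01. Leaving out a single library ended the call of Slc7a11 in each of 4 cases, with adjusted p between 0.0598 and 0.0703. The call of Ddit4 was lost without the second GKO library (0.78, adjusted p = 0.0882) and without the second naïve library (0.77, adjusted p = 0.0873).

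In DKO, which lacks AMPK as well, the same 8 genes passed against the same naïve libraries, 3 higher and 5 lower, where 46.0% of all tested genes passed, 21.7% higher and 24.3% lower. With an absolute change of at least 1, Chac1 and Ddit4 remained, as did 2.96% of all genes. Since GKO and DKO were set against shared controls, their values are given side by side only. Chac1 changed by -1.29 in DKO (SE 0.11, adjusted p = 5.10e-05), Atf4 by -0.55 (SE 0.05, adjusted p = 4.77e-05) and Trib3 by -0.56 (SE 0.10, adjusted p = 0.00194). Slc3a2 changed by -0.41 (adjusted p = 0.00267), or by -0.14 relative to its chromosome. The median of chromosome 19 was -0.26 here. The rises of Ddit4 (1.66, SE 0.25, adjusted p = 0.000798) and Sesn2 (0.73, SE 0.07, adjusted p = 5.69e-05) took Ddit4 to 3.42 times and Sesn2 to 1.68 times its naïve mean. Asns changed by -0.15 (adjusted p = 0.372) and Ddit3 by -0.12 (adjusted p = 0.625), neither past the threshold, although Asns passed with the primed libraries left out of the fit (adjusted p = 0.0207). Slc7a11 changed by -0.28 (adjusted p = 0.00914), with the call lost without the first naïve library (adjusted p = 0.0526). Over the 10 genes the median change was -0.21, against -0.01 over all genes.

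In AKO, all 10 genes had a higher mean than in naïve ESCs, and 1 of them passed the test, where 0.224% of all tested genes passed and 0.0663% passed as higher. None of the 10 changed by 1 or more, against 0.00829% of all genes called at that size. That gene was Slc7a11, with a change of 0.46 (SE 0.07, adjusted p = 0.0424), from 0.247 ± 0.00283 to 0.715 ± 0.0205 TPM (SD, n = 2). Slc7a11 was under 1 TPM in both lines and was tested only because it passed the filter in the primed libraries. Its call is therefore not to be read against the share of all tested genes. Without any one of the 4 libraries it no longer passed, at adjusted p between 0.258 and 0.441. Chac1 changed by 0.48 (95% interval 0.22 to 0.74, adjusted p = 0.174), Trib3 by 0.23 (interval 0.00 to 0.46, adjusted p = 0.478) and Atf4 by 0.18 (interval 0.07 to 0.29, adjusted p = 0.215). The median change of the 10 genes was 0.20, against -0.01 over all tested genes, of which 47.5% had a higher mean in AKO. The sign of Asns, at 0.04, turned to -0.02 under quantile normalization. The unadjusted p from limma was under 0.05 for 4 of the 10 genes, Slc7a11 among them, and for 1231 of the 12060 tested genes.

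**Figure D2:**
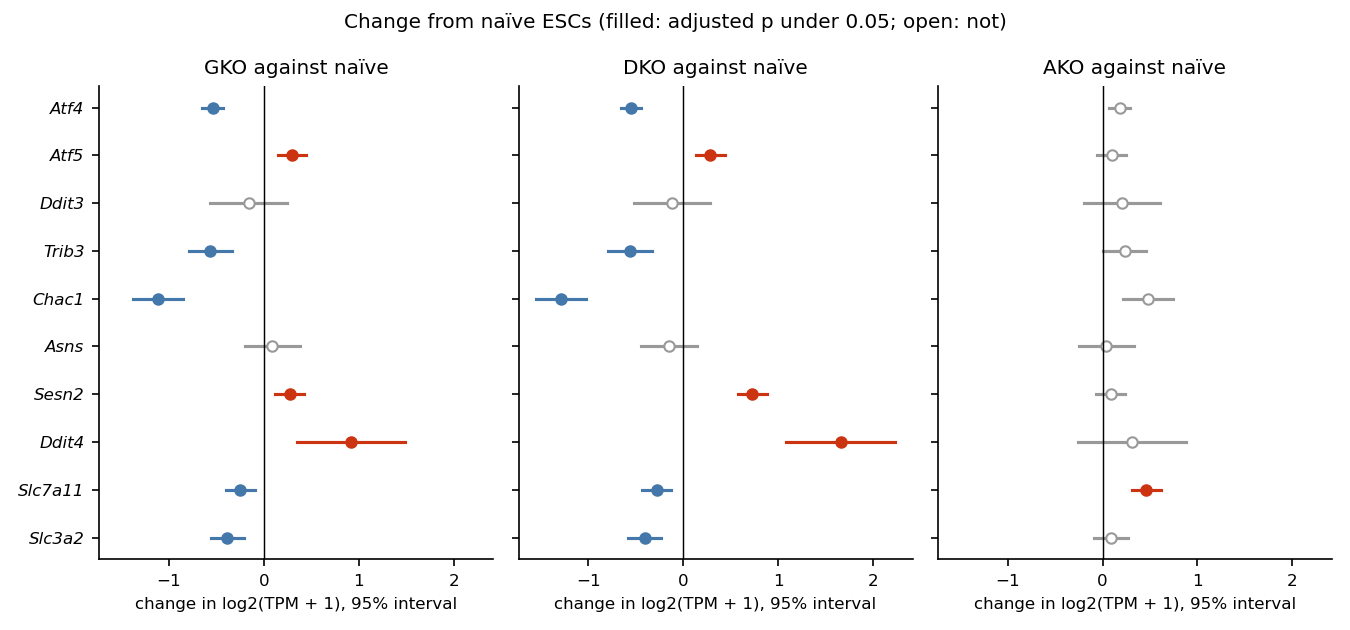
Change of each of the 10 genes against naïve ESCs on the log2(TPM + 1) scale in GKO, DKO and AKO, with 95% intervals from limma (filled points: adjusted p under 0.05; red higher, blue lower; open points: not past the threshold). The panels share the naïve libraries, and the 8 filled genes in GKO and in DKO are 3 to the right and 5 to the left of 0, while all 10 points of AKO lie to the right.

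GKO and DKO were then compared directly, to see where the additional loss of AMPK moved these genes. Of the 10 genes, 2 differed, both lower in GKO, where 43.5% of all tested genes differed and 22.4% were lower. Neither reached an absolute change of 1, which 2.68% of all genes did. They were the mTORC1 inhibitors. Sesn2 differed by -0.46 (SE 0.07, adjusted p = 0.000774), with a mean of 38.7 ± 0.226 TPM in GKO against 53.6 ± 4.77 in DKO (SD, n = 2). Ddit4 differed by -0.74 (SE 0.25, adjusted p = 0.0415), and that call was lost in each of the 4 fits without a GKO or DKO library, at adjusted p between 0.0751 and 0.198. The remaining genes did not pass, with intervals of -0.10 to 0.12 for Atf4, -0.23 to 0.23 for Trib3, -0.09 to 0.43 for Chac1 and -0.15 to 0.20 for Slc3a2. For Atf4 this interval leaves room for a difference of up to 0.12 between the lines, against a change of -0.54 from naïve ESCs. Asns, at 541 TPM in GKO and 459 TPM in DKO, differed by 0.24 (adjusted p = 0.162) and passed without the primed libraries in the fit (adjusted p = 0.00255). The median tested gene of its chromosome, 6, differed by 0.15, and relative to that median Asns differed by 0.089.

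The comparison of DKO with AKO gives the change with Gys1 loss between lines with the Prkaa1 knockout, in libraries that GKO and naïve ESCs do not share. The level of Prkaa1 itself was lower in DKO than in AKO, so these lines may differ in more than Gys1. Again 8 genes passed, 3 higher and 5 lower, where 46.3% of all tested genes passed, 22.4% higher and 23.9% lower. At an absolute change of at least 1, Chac1 and Ddit4 passed, as did 3.11% of all genes. The 8 were the 8 genes of GKO against naïve ESCs, each in the same direction. Across the whole table, 3672 genes passed in both comparisons, 87.5% of them in the same direction. Chac1 changed by -1.77 (SE 0.11, adjusted p = 9.97e-06), with a mean in AKO 4.22 times that in DKO. Atf4 changed by -0.73 (SE 0.05, adjusted p = 1.14e-05), Trib3 by -0.80 (SE 0.10, adjusted p = 0.000307) and Slc3a2 by -0.50 (SE 0.08, adjusted p = 0.000917), or by -0.24 relative to the median of chromosome 19, which was -0.26. Relative to the median of chromosome 15, which was -0.19, Atf4 changed by -0.54. Slc7a11 changed by -0.74 (SE 0.07, adjusted p = 5.59e-05), from 0.715 to 0.0285 TPM. Ddit4 rose by 1.34 (SE 0.25, adjusted p = 0.00241) and Sesn2 by 0.64 (SE 0.07, adjusted p = 0.000105). Atf5 changed by 0.19 (adjusted p = 0.0405), a call that was lost in 3 of 4 fits without an AKO or DKO library, at adjusted p up to 0.251. The median change of the 10 genes was -0.41, against -0.00 over all tested genes.

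The difference between both Gys1 effects was tested as an interaction, GKO minus naïve less DKO minus AKO. It passed for 3 of the 10 genes, where it passed for 25.8% of all tested genes. None of the 3 reached 1 in size, which 2.89% of all genes did. For Chac1 it was 0.65 (SE 0.16, adjusted p = 0.0186) and for Slc7a11 0.49 (SE 0.10, adjusted p = 0.00658), both of which fell further where AMPK was absent. For Sesn2 it was -0.37 (SE 0.09, adjusted p = 0.0210), which rose further there. Chac1 and Slc7a11 started higher in AKO than in naïve ESCs, by 0.48 (not past the threshold) and 0.46. Between GKO and DKO they differed by 0.17 and 0.03, neither past the threshold. Slc7a11 was under 1 TPM in each of these lines and entered the test only through the primed libraries. The other genes had interactions from -0.42 for Ddit4 (adjusted p = 0.418) to 0.28 for Asns (adjusted p = 0.292), and Atf4 was at 0.20 (adjusted p = 0.0658). Relative to the median of chromosome 6, which was 0.12, the interaction of Asns was 0.16. In size, the change was larger in DKO against AKO for 9 of the 10 genes, the exception being Atf5, but Asns and Ddit3 passed in neither comparison. The same count was not made over all tested genes, so it is not a result about the 10 genes. The calls of Chac1 and Sesn2 depended on single libraries: over 8 fits that each left out 1 library, the adjusted p ranged from 0.0256 to 0.0728 for Chac1, which was not called in 4 of them (without the first naïve, first AKO, second DKO or second GKO library), and from 0.0117 to 0.0706 for Sesn2, which was called only without the first DKO library.

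**Figure D3:**
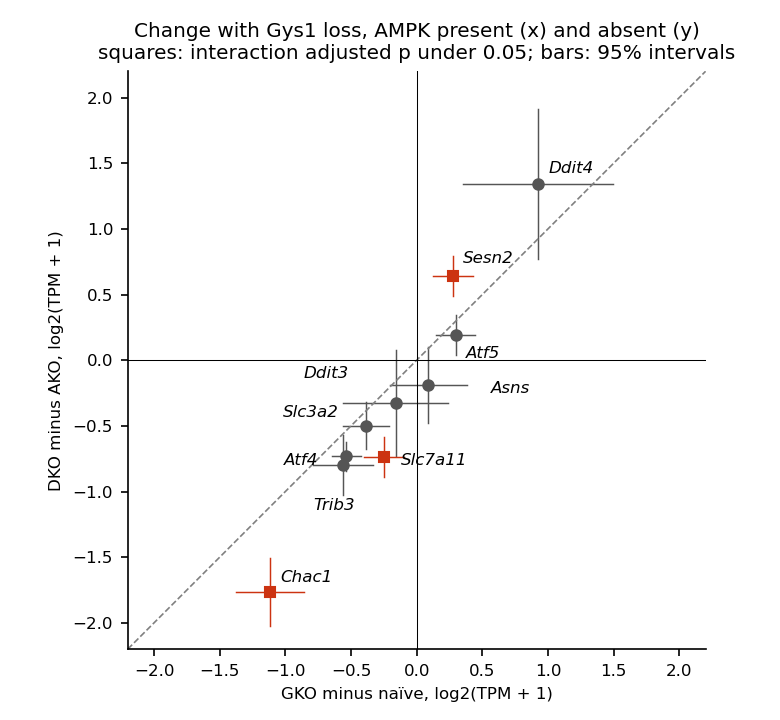
Change of each of the 10 genes with Gys1 loss on the log2(TPM + 1) scale where AMPK is present (GKO minus naïve, x axis) and where it is absent (DKO minus AKO, y axis), with 95% intervals and a dashed line of equality. Chac1, Slc7a11 and Sesn2, drawn as squares, have an interaction past the threshold. Of the 10 points, 9 lie farther from 0 on the y axis than on the x axis, a count that was not made over all tested genes.

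Primed ESCs, the later state of pluripotency, differed from naïve ESCs in another combination of these genes. Slc7a11, Ddit4 and Atf5 were much higher, Sesn2 and Ddit3 were higher, and Asns and Trib3 were lower, while Atf4 itself was at a near equal level. In all 7 of the 10 genes passed, 5 higher and 2 lower, where 80.0% of all tested genes passed, 37.4% higher and 42.5% lower. At an absolute change of at least 1, 5 of the 10 genes and 27.8% of all genes were called. Slc7a11 passed the filter on low values only through the primed libraries, so its call was given by the filter and adds nothing to the count. It rose by 4.32 (SE 0.07, adjusted p = 1.17e-10), from 0.247 ± 0.00283 to 23.8 ± 0.0120 TPM (SD, n = 2). Ddit4 rose by 3.68 (SE 0.25, adjusted p = 9.34e-07), from 7.66 ± 1.24 to 114 ± 45.7 TPM, and Atf5 by 1.31 (SE 0.07, adjusted p = 1.28e-07). Sesn2 rose by 0.48 (SE 0.07, adjusted p = 0.000128).

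Asns fell by 1.89 on the log2 scale in primed ESCs (SE 0.13, adjusted p = 8.68e-07), to a mean of 138 ± 33.7 TPM, and remained at -1.50 relative to the median of chromosome 6. Trib3 changed by -1.26 (SE 0.10, adjusted p = 2.84e-06). Ddit3 changed by 0.48 (adjusted p = 0.0309), a call lost without the first primed library (0.21, adjusted p = 0.221) and without the second naïve library (0.28, adjusted p = 0.223). It was also lost under quantile normalization (0.20, adjusted p = 0.357), with no filter on low values (adjusted p = 0.0633) and with only the lines compared (adjusted p = 0.12). Atf4 changed by 0.03 (95% interval -0.08 to 0.14, adjusted p = 0.560), Chac1 by -0.15 (interval -0.41 to 0.11) and Slc3a2 by 0.17 (adjusted p = 0.0649). The median tested gene changed by -0.22 on chromosome 15 and by -0.45 on chromosome 19. Relative to these medians Atf4 was higher by 0.25 and Slc3a2 by 0.62. Under quantile normalization Atf4 and Slc3a2 passed, at 0.26 (adjusted p = 0.000506) and 0.43 (adjusted p = 0.00279), and they did so under median-ratio scaling, at 0.14 and 0.28. The median change of the 10 genes was 0.33, against -0.05 over all tested genes.

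**Figure D4:**
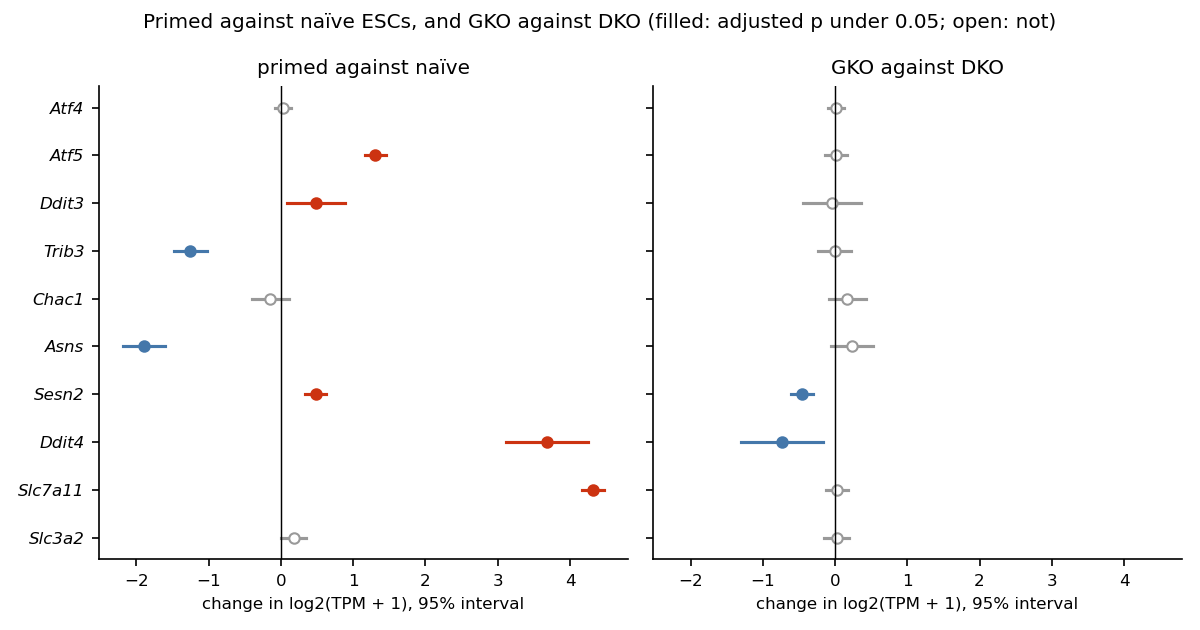
Change of each of the 10 genes on the log2(TPM + 1) scale in primed against naïve ESCs (left) and in GKO against DKO (right), with 95% intervals from limma (filled points: adjusted p under 0.05; open points: not past the threshold). In primed ESCs Slc7a11 and Ddit4 lie farthest right and Asns farthest left, and in GKO against DKO Sesn2 and Ddit4 alone are filled, both left of 0.

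Other genes of the pathway were taken from lists, whose counts are to be read beside the shares of all tested genes. Those shares were 24.7% higher and 27.1% lower in GKO, 21.7% and 24.3% in DKO, and 37.4% and 42.5% in primed ESCs. A count near or under these shares is not a result about its list. Of 14 genes for eIF2 kinases, phosphatase subunits and eIF2B, 3 were higher and 6 lower in GKO, with a median of -0.15. Impact, which restrains the amino acid sensing kinase GCN2, changed by -0.61 (adjusted p = 0.000736), and Ppp1r15a (GADD34), the inducible phosphatase subunit that ATF4 activates, changed by -0.55 (adjusted p = 0.00503). Eif2ak4, which encodes GCN2, rose by 0.36 (adjusted p = 0.00518), from 5.40 and 5.19 to 7.11 and 7.06 TPM. In DKO, 1 of the 14 was higher and 4 lower, with Ppp1r15a at -0.37 (adjusted p = 0.0343) and Eif2b5, a subunit of the exchange factor of eIF2, at 0.42. In primed ESCs 2 were higher and 8 lower, with Eif2ak3 (PERK), the kinase of the endoplasmic reticulum, at -0.90 and Eif2b5 at -1.28. Of 8 tested bZIP partners and stress transcription factors, 1 was higher and 1 lower in GKO, and 1 higher and 2 lower in DKO. There Nupr1, a stress-induced cofactor of ATF4 target genes, changed by -1.29, from 13.8 and 11.0 to 4.35 and 4.53 TPM (adjusted p = 0.000809). In primed ESCs 4 were higher and 2 lower, with Atf3 going from 1.28 and 0.974 to 4.99 and 5.01 TPM, Jun at 3.995 and Nupr1 at -3.14.

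Synthesis genes that ATF4 activates besides Asns were counted next, beside the same shares of all tested genes. Of 14 genes for serine, proline and related amino acid synthesis, none was higher and 8 were lower in GKO, with a median of -0.35. Cth, which makes cysteine, changed by -0.95 (adjusted p = 3.09e-05), from 28.3 and 28.0 to 14.07 and 14.01 TPM. Psat1, of serine synthesis, changed by -0.82 (adjusted p = 2.65e-05), from 319.6 and 325.5 to 182.6 and 181.5 TPM, and lies on chromosome 19 with the median of -0.40 given above. In DKO 2 were higher and 8 lower, with a median of -0.32. Psat1 changed by -1.18, whereas Cth rose by 0.30 and Cbs, the enzyme before Cth, by 1.36 (from 9.67 and 8.54 to 24.1 and 25.7 TPM). Cth and Cbs were the genes of this list that differed most between GKO and DKO, at -1.25 and -1.74. In primed ESCs 5 were higher and 4 lower, with Pck2 at 1.03 and Phgdh, the first enzyme of serine synthesis, at 0.79.

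Of 21 genes for cytosolic aminoacyl-tRNA synthetases and the tRNA exporter Xpot, which load and carry the tRNAs that GCN2 monitors, 1 was higher and 13 lower in GKO, with a median of -0.21. Xpot changed by -0.68 and Wars by -0.62, and Dars by 0.22. In DKO 4 were higher and 12 lower, with Xpot at -0.76 and Gars at -0.59, and in primed ESCs 2 were higher and 16 lower, with a median of -0.29. Of 13 tested amino acid transporters besides the 2 above, 4 were higher and 3 lower in GKO. In all 53.8% of them were called there, near the 51.7% of all tested genes. The cationic transporter Slc7a3 rose by 0.55, from 98.8 and 97.1 to 149 and 138 TPM, and Slc7a1, of the same function, changed by -0.50. In DKO 2 were higher and 5 lower, and in primed ESCs 7 were higher and 3 lower, with a median of 0.49. Slc1a4, which carries alanine and serine, rose there by 3.29, from 2.04 and 2.15 to 29.8 and 28.8 TPM.

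Of 12 tested secreted and other outputs of ATF4, 3 were higher and 2 lower in GKO and 3 higher and 4 lower in DKO. That is 41.7% called in GKO and 58.3% in DKO, against 51.7% and 46.0% of all tested genes. Sqstm1, an autophagy receptor, changed by -0.65 in GKO and -0.76 in DKO, while Vegfa and Ero1l rose in GKO, by 1.00 and 0.81. In primed ESCs 6 were higher and 4 lower, with the secreted factor Gdf15 at -2.07 and Stc2 at 2.85. Of 10 tested paralogs of the 10 genes, 3 were higher and 3 lower in GKO, with Atf1 at -0.46 and Sesn1 at 0.47. In DKO 3 were higher and 2 lower, with Ddit4l, the paralog of Ddit4, at 1.58 (from 1.97 and 1.54 to 7.21 and 7.23 TPM) and Sesn3 at 0.76. In primed ESCs 5 were higher and 3 lower, with Sesn3 at 1.75 and Trib2 at 1.88. In AKO no gene of any of these lists passed, and limma gave 27 passing genes in the whole table.

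Some of the 10 genes also answer to other stress pathways, whose genes were counted beside them. Of 18 genes of the XBP1 and ATF6 branches, 2 were higher and 11 lower in GKO and 2 higher and 9 lower in DKO. These are the other arms of the response to unfolded protein, and the list holds Xbp1, Atf6 and Ern1 beside targets. Xbp1 itself changed by -1.16 in GKO (adjusted p = 6.60e-06), from 23.2 in both naïve libraries to 9.77 and 9.85 TPM. The list for NRF2, which activates Slc7a11 in oxidative stress, holds Nfe2l2 and Keap1 beside targets. Of 13 tested, 1 was higher and 10 lower in GKO, and none higher and 8 lower in DKO. In primed ESCs 4 were higher and 6 lower. Gclm, the regulatory subunit of glutathione synthesis, changed by -0.73 in DKO. Of 11 tested genes of glutathione and cystine handling, which share members with these lists, 1 was higher and 4 lower in GKO, 5 higher and 3 lower in DKO, and 3 higher and 6 lower in primed ESCs.

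The p53 list holds p53 itself (Trp53) and targets, and p53 activates Sesn2 and Ddit4. Of its 14 genes, 9 were higher and 2 lower in GKO, with a median of 0.60. In DKO 10 were higher and none lower, with a median of 0.63. Over all tested genes 24.7% were higher and 27.1% lower in GKO, and 21.7% and 24.3% in DKO. Gadd45a rose in GKO by 1.46 and Btg2 by 1.27, and Cdkn1a (p21) changed by -0.53. Trp53inp1 rose in DKO by 1.60, from 29.5 and 30.5 to 91.8 and 94.0 TPM. In primed ESCs 8 were higher and 3 lower. Hypoxia and glucocorticoids both raise Ddit4, and their list holds Hif1a beside targets. Of 12 tested, 5 were higher and 2 lower in GKO, and 1 higher and 4 lower in DKO. In primed ESCs 7 were higher and 3 lower, with a median of 1.03. Bnip3 rose there by 2.97 and Egln3 by 2.72, while Klf9 changed by -1.96. No share of these lists was tested against other genes.

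**Figure D5:**
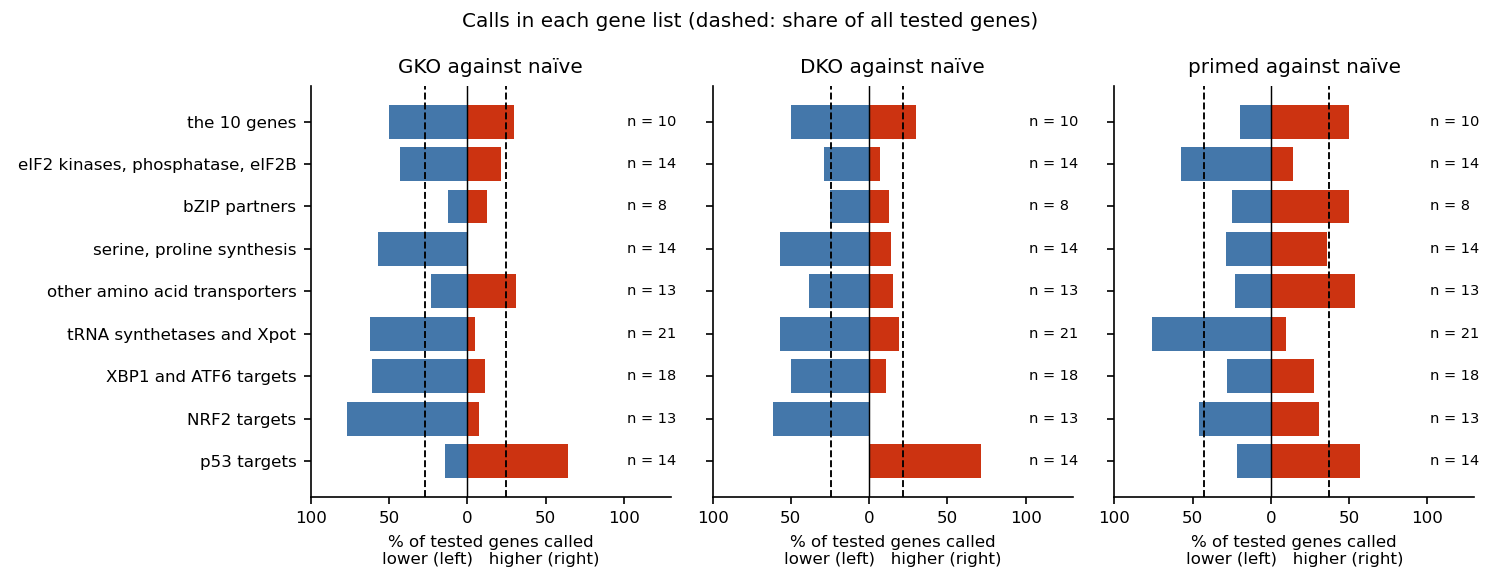
Share of the tested genes of each list called higher (right, red) or lower (left, blue) at an adjusted p under 0.05 in GKO, DKO and primed against naïve ESCs, in percent, with the number tested beside each bar and dashed lines at the share of all tested genes. In GKO and DKO the bars of the 10 genes, the eIF2 genes, serine and proline synthesis and tRNA synthetases reach past the left dashed line. Those of XBP1 and ATF6 targets and of NRF2 targets do so too. In DKO alone the bars of bZIP partners and other amino acid transporters also pass it. The bar of bZIP partners there is 2 of 8 genes and that of the eIF2 genes 4 of 14, near the 24.3% of all tested genes. A bar near its dashed line is not a result about its list. On the right the bars of the 10 genes and p53 targets pass the line in both, and that of other amino acid transporters in GKO. The lists named for targets also hold their regulators.

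Markers of some other cell types also differed from naïve ESCs in GKO or in DKO, though not every set did so in both lines. Trophectoderm markers, 8 in all, summed to 47.5 and 49.4 TPM in GKO, against 27.3 and 29.6 in DKO and 18.2 and 19.1 in naïve ESCs. All 4 that were tested were higher in GKO, Tfap2c among them, while the defining markers Elf5 and Gata3 were under 1 TPM in each library of GKO. Fibroblast markers, 8 in all, summed to 9.54 and 10.7 TPM in GKO, against 3.40 and 3.43 in DKO and 3.24 and 3.86 in naïve ESCs. Of the 4 tested, 3 were higher in GKO, and Postn, Dcn and Lum were at 0 in both of its libraries. Of all tested genes, 24.7% were higher in GKO. Mesendoderm markers summed to 36.3 and 38.2 TPM in GKO and 22.8 and 23.9 in DKO, against 36.6 and 37.5 in naïve ESCs. Of these 8 genes, 5 were under 1 TPM in both libraries of each of these lines, and none of the 3 tested passed in GKO or DKO. Primitive endoderm markers summed to 82.8 and 83.1 TPM in GKO and 122 and 124 in DKO, against 90.6 and 92.6 in naïve ESCs. Of these 8 genes, 7 were under 1 TPM in both libraries of naïve ESCs and of DKO, and 6 in those of GKO. The primitive endoderm sums therefore rest on very few genes. In primed ESCs the mesendoderm sum was 34.9 TPM in one library and 3.83 TPM in the other, and the primed markers summed to 554 and 559 TPM against 86.3 and 91.1 TPM in naïve ESCs. The part of these shifts in the values of the 10 genes was not tested. In bulk RNA, more cells of a type and more RNA per cell cannot be told apart.

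Over the 8 libraries of the J1 lines, the 10 genes fell into groups by their levels. Pearson r of log2(TPM + 1) with Atf4 was 0.99 for Slc3a2, 0.98 for Chac1, 0.97 for Trib3, 0.92 for Slc7a11 and 0.77 for Ddit3. It was 0.33 for Asns, which varied least with Atf4, and -0.76 for Sesn2, -0.81 for Ddit4 and -0.85 for Atf5. Sesn2 and Ddit4 had r of 0.95 with each other. The median over all 45 pairs was 0.26. These 8 points come from 4 lines, so most of each r is the difference between lines, and r is given as a description.

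The genes outside the 10 with the most similar levels were sought, for the 8 genes that passed in a comparison among the J1 lines (Ddit3 and Asns did not), among 4370 tested genes whose line means ranged by at least 0.5 on the log2(TPM + 1) scale. For Atf4 they were Sfxn1 (r = 0.997 over 8 libraries), a mitochondrial serine transporter, Bcap29 (0.994) and Sgk3 (0.994), and 225 genes had r above 0.95. Sfxn1 was at 50.6 and 49.5 TPM in the naïve libraries, 54.4 and 53.5 in AKO, 36.8 and 36.1 in GKO and 36.2 and 37.1 in DKO. Slc3a2 was most like Odc1 (0.998), the first enzyme of polyamine synthesis, then Tex19.1 and Sfxn1. Trib3 was most like Mylip, Psph and Ldha (0.991 to 0.988), Psph being the last enzyme of serine synthesis. Chac1 was most like Rtn3, Usp26 and Acp1, Sesn2 like Nkx2-9, Fbxw9 and Ngdn, and Ddit4 like Rap2b, Stap2 and Capsl. Atf5 was most like Fancm, Fuom and Gm14418, and Slc7a11 like Uchl1, Pla2g1b and Mettl5. Over these 8 genes, the number of genes above 0.95 ran from 5 for Slc7a11 to 264 for Slc3a2.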

How the data were processed

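Poly(A) RNA of 10 libraries of mouse ESCs was sequenced, 2 per line. The authors made the deposited TPM values from the reads; the submitters' notes name FastQC, Trim Galore 0.6.6, STAR 2.7.9a and RSEM 1.3.3, and both GRCm38 and GRCh38, whereas the study's methods give GRCm39 and protein-coding genes. TPM holds no read depth, so no counting interval is given. The table was limited to the 12060 genes with 1 TPM or more in 2 or more libraries, transformed as log2(TPM + 1), and fitted with limma 3.58.1 (R 4.3.3) with an intensity trend and 1 mean per line over all 10 libraries. P-values were Benjamini-Hochberg adjusted over all tested genes in each comparison, with a threshold of 0.05. An exact permutation test of 2 against 2 libraries cannot go below p = 0.333. Genes named from a list were among the 2 largest rises and 2 largest falls past the threshold, with a mean of at least 5 TPM in the higher line. The 10 genes and the lists were chosen with earlier results of these data known. Alternatives covered the filter, pseudocount, scaling, trend, libraries fitted and replicate block. The fit was tested on simulated data.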

Additional observations from a re-analysis of the deposited data

Results flagged for a closer look

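For 3 of the 10 genes the change with Gys1 loss differed between cells with and without AMPK, by the limma test of the interaction, which 25.8% of all tested genes passed. For Chac1 the difference was 0.65 on the log2(TPM + 1) scale (SE 0.16, adjusted p = 0.0186), with a change of -1.11 in GKO against naïve ESCs and -1.77 in DKO against AKO. For Slc7a11 it was 0.49 (SE 0.10, adjusted p = 0.00658), between -0.25 and -0.74, at levels under 1 TPM throughout. For Sesn2 it was -0.37 (SE 0.09, adjusted p = 0.0210), between 0.27 and 0.64. Over 8 fits that each left out 1 library, the difference ranged from 0.55 to 0.75 for Chac1 and from -0.46 to -0.28 for Sesn2. The calls of Chac1 and Sesn2 depended on single libraries, as given above. Slc7a11 entered the tests only through the primed libraries, which are not in this contrast, so its call is not to be read as support. The differences share their libraries with the Y-linked genes that separate GKO and DKO from naïve ESCs and AKO, and the part of those in them was not tested.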

How the results depend on the processing

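The calls among the 10 genes were refitted under other settings. Requiring in addition an absolute log2 change of at least 1 left 1 gene in GKO, 2 in DKO and 0 in AKO against naïve ESCs, 0 in GKO against DKO, 2 in DKO against AKO and 0 in the interaction. That size depends on the pseudocount: with 0.1 in place of 1, Slc7a11 stood at -1.20 in GKO, -1.43 in DKO, 1.23 in AKO, -2.67 in DKO against AKO and 1.46 in the interaction, and the count over all tested genes went from 433 to 1077 in GKO, 357 to 862 in DKO and 349 to 796 in the interaction. The single call in AKO became 0 at a mean of at least 5 TPM, with only the lines compared, under the replicate block and in every fit without a library. The 2 calls of GKO against DKO became 1 with no filter, quantile normalization, no intensity trend, the replicate block and in every fit without a library. The interaction gave 5 genes with only the lines compared and without the primed libraries, and 1 to 3 without a single library. Signs turned for Slc3a2 in GKO (0.012 relative to its chromosome), Asns in GKO (-0.049 relative to its chromosome), Asns in AKO (-0.021, quantile) and Trib3 in GKO against DKO (0.017 quantile, 0.015 median-ratio, 0.00096 relative to its chromosome). Without single libraries, Ddit3 ranged from -0.36 to 0.040 in GKO, -0.32 to 0.084 in DKO, -0.099 to 0.012 in GKO against DKO and -0.037 to 0.36 in the interaction, and in GKO against DKO Atf4 ranged from -0.032 to 0.060, Atf5 from -0.019 to 0.041, Trib3 from -0.11 to 0.11 and Slc3a2 from -0.0037 to 0.051. The cause was not tested.

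Replicate numbers did not pair the libraries, with correlations of deviations from -0.13 to 0.08. With the replicate block, 8 genes passed in GKO, 8 in DKO, 0 in AKO and 7 in primed ESCs against naïve ESCs, 1 in GKO against DKO, 7 in DKO against AKO and 3 in the interaction. Over all tested genes, AKO gave 27 calls, against 0 with only the lines compared and 131 without the primed libraries, and the interaction 3116, against 1944 in the fit without a library that gave fewest. Depth is unknown, which limits genes at a low level. Slc7a11 and Ddit3 were not tested at a mean of at least 5 TPM.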
